A study of Mus musculus with 9 samples.

Results

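The genes of heme breakdown and iron handling (Hmox1, Hmox2, Blvra, Blvrb, Fth1, Ftl1, Tfrc, Slc40a1, Slc11a2 and Ireb2) were followed in MC38 cells, a mouse colon carcinoma line. They were taken by gene symbol, 10 of the 16509 genes in the deposited table, and 9 of them passed the filter on low counts. The exception was the iron exporter Slc40a1. The 9 libraries fall into control cells (Ctrl), cells given cystine with copper chloride (Cu-Cys) and cells given Cadict, at 3 libraries a group. Cadict joins Cu-Cys with glucose oxidase, which makes hydrogen peroxide from glucose, and GE11, a peptide that binds the epidermal growth factor receptor. Several components therefore separate Cadict from Cu-Cys and cannot be told apart. The labels give DMSO as the control treatment and the study's text gives PBS, and neither gives a dose or time for these libraries. All libraries come from 1 cell line. The study's general methods state that cell experiments had at least 3 independent repeats and call n the number of biological replicates. How the replicates of these libraries were grown is not described, so p-values measure the spread between these samples, which may be technical.

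Heme oxygenase opens the heme ring and releases iron, carbon monoxide and biliverdin, which biliverdin reductase turns into bilirubin. Cells take up iron through the transferrin receptor and the divalent metal transporter, store it in ferritin cages of heavy and light chains, and export it through ferroportin. When iron is scarce, iron regulatory proteins bind hairpins called iron-responsive elements, which blocks translation from a hairpin in the 5′ untranslated region (UTR) and stabilizes an mRNA with hairpins in its 3′ UTR. The libraries measure mRNA levels and not translation.

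The hairpins of these mRNAs are shown because they divide the members with a match into storage and export genes on the one hand and the uptake gene Tfrc on the other. A search for a C, any 5 bases, CAGTGN and 5 bases that pair with the first 5, allowing G with T, was run on the sense strand of UTRs of protein-coding transcripts (GENCODE M21, GRCm38). It matched 0.142% of 21901 genes in the 5′ UTR and 0.589% in the 3′ UTR. Among the members, Fth1, Ftl1 and Slc40a1 each had 1 match in the 5′ UTR and Tfrc had 4 in the 3′ UTR. The other members, among them the uptake gene Slc11a2, had no match in these windows. This does not show that they lack an element, because the pattern misses a hairpin with an unpaired base among these 5. A match is a description of letters only. The sequences run 5′ to 3′ on the transcript, and capitals mark the 6-base loop.
Fth1 5′ UTR, exon 1, chr19:9982732-9982760, plus strand: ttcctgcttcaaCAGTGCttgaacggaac
Ftl1 5′ UTR, exon 1, chr7:45459779-45459807, minus strand: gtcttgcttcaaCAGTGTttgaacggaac
Slc40a1 5′ UTR, exon 1, chr1:45925465-45925493, minus strand: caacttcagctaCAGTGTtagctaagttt
Tfrc 3′ UTR, exon 19, site 1, chr16:32631219-32631247, plus strand: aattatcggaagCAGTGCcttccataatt
Tfrc 3′ UTR, exon 19, site 2, chr16:32631598-32631626, plus strand: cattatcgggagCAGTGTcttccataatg
Tfrc 3′ UTR, exon 19, site 3, chr16:32631663-32631691, plus strand: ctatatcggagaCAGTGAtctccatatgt
Tfrc 3′ UTR, exon 19, site 4, chr16:32631710-32631738, plus strand: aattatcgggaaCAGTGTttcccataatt
The ferritin hairpins share 26 of 29 bases, whereas the Fth1 hairpin shares 9 to 11 bases with the Tfrc hairpins. Tfrc sites 1 and 2 share 25 of 29 bases.

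Libraries held 17905771 to 18293056 counts in total. A count of 0 allows up to 3 counts by counting error alone, which is 0.164 to 0.168 CPM, a count scaled to a common library total. The 100 most abundant genes took 29.8% to 31.1% of counts in Cadict libraries and 17.2% to 18.2% in the others. Values below are CPM after TMM scaling, which sets libraries to a common level of the typical gene, and changes are relative to that level. Library totals in place of TMM moved the median log2 fold change over all genes by -0.952 in Cadict against Ctrl, by -0.881 in Cadict against Cu-Cys and by -0.068 in Cu-Cys against Ctrl, so small changes with Cadict depend on it. Bulk RNA cannot tell fewer cells of a type from less RNA per cell. Of 7 epithelial markers, 6 were in the table and 2 (Krt19 and Cdh1) passed the filter. The summed level of all 6 was 5.32 to 6.83 CPM in Ctrl, 3.97 to 4.38 in Cu-Cys and 24 to 26.1 in Cadict. The defining markers Epcam, Krt8, Krt18 and Vil1 were below the filter in this carcinoma line. The 4 fibroblast collagen and receptor markers summed to 691 to 725, 401 to 406 and 176 to 191 CPM. Immune markers, which would mark macrophages, the main cells of heme recycling, summed to at most 0.34 CPM in any library, and 0 of 6 passed the filter. Erythroid markers summed to 2.09 to 3.16 CPM in Ctrl, 2.19 to 2.24 in Cu-Cys and 0.0849 to 0.348 in Cadict, with 1 of 6 past the filter. Their part in the results below was not tested.

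In Cadict against Ctrl, 4 members (Hmox1, Blvrb, Fth1 and Ftl1) were called higher and 2 (Hmox2 and Ireb2) lower, where called means 2-fold or more with an adjusted p no higher than 0.001 in edgeR's quasi-likelihood test. Of all 11949 genes tested, 20.7% were called higher and 27.1% lower. An adjusted p no higher than 0.05, the mark for passing the test, was reached by 5 members that were higher and 4 that were lower, against 40.6% and 47.1% of all genes, so that passing this test is common. In Cadict against Cu-Cys, 4 members were called higher and 3 lower (backgrounds 18.6% and 23.6%), Tfrc being the added one, and 5 and 4 passed the test (backgrounds 40.3% and 45.6%). With Cu-Cys against Ctrl, Hmox1 was the 1 member called higher, against 0.167% of all genes, and 0 were called lower, against 1.47%. There 6 members were higher at an adjusted p of at most 0.05 (background 22.6%) and 0 lower (background 22.4%), and 0 were lower at an unadjusted p under 0.05 or by DESeq2. Library totals left 4 of these members passing higher, with 0 lower. Under library totals, the calls with Cadict were 4 higher with 4 lower against Ctrl, and 3 higher with 4 lower against Cu-Cys. The comparisons share libraries and are not independent of each other. Over the 9 members, log2 fold changes had a median of 0.522 in Cadict against Ctrl and 0.24 in Cu-Cys against Ctrl, beside -0.125 and 0.00668 for all genes tested. The first of these medians is the value of Slc11a2, which library totals turned to -0.43. The second is the value of Blvrb, which was 0.17 under library totals and did not pass the test there.

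**Figure D1:**
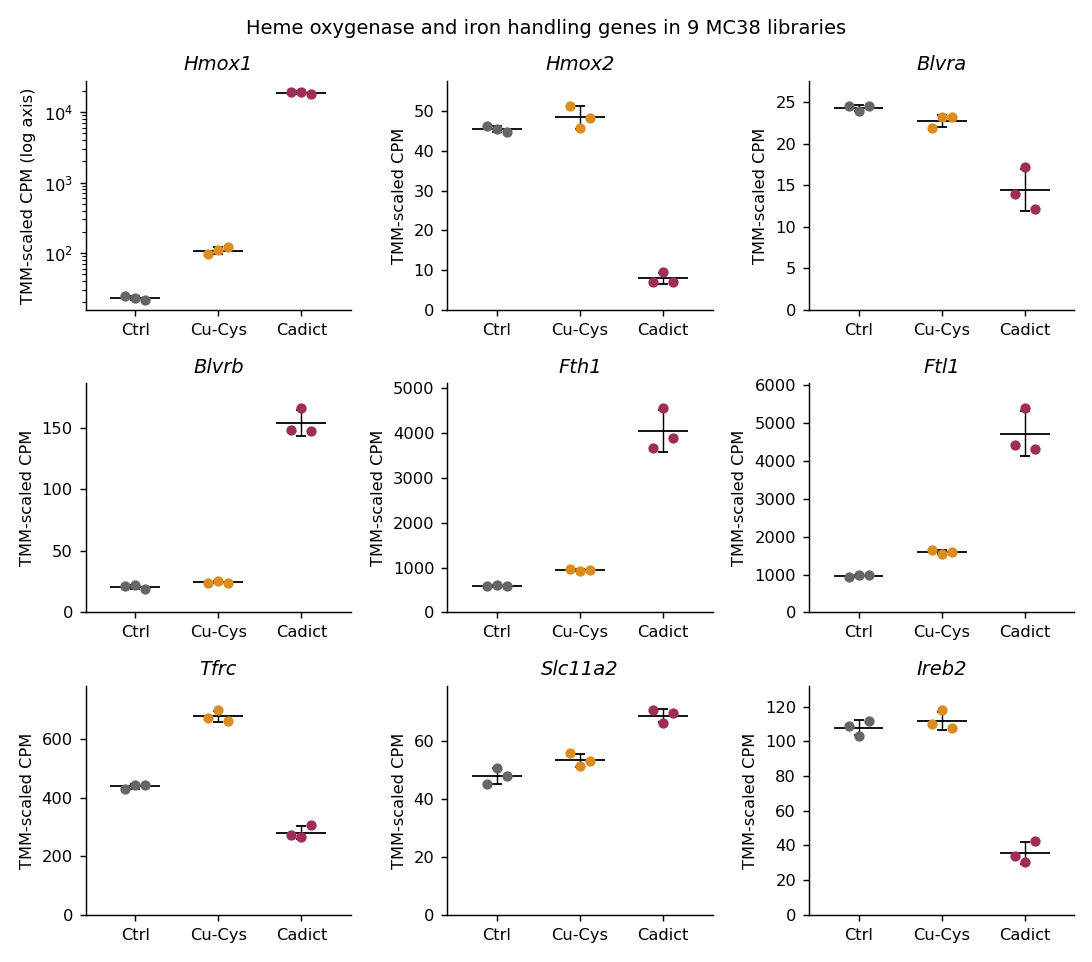
TMM-scaled CPM of the 9 tested members in each library (points), with the group mean (long line) and SD (bars) of 3 libraries; the axis of Hmox1 is logarithmic and the others start at 0. Hmox1, Blvrb, Fth1 and Ftl1 are highest in Cadict, Hmox2, Blvra and Ireb2 are lowest there, and Tfrc is highest in Cu-Cys at 677.1 CPM and lowest in Cadict at 280.8 CPM.

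Heme oxygenase 1, the inducible isoform (Hmox1, Entrez number 15368, chromosome 8 from 75093621 to 75100589 on GRCm38), had 24.4, 23.2 and 21.97 CPM in the Ctrl libraries, 96.5, 109.0 and 120.8 in the Cu-Cys libraries and 18980, 19270 and 17670 in the Cadict libraries. The 3 groups were fully apart. Hmox1 rose 804.3-fold in Cadict against Ctrl (log2 fold change 9.65, standard error 0.10, 95% interval 9.44 to 9.87, adjusted p = 5.4e-18), and library totals gave a log2 of 8.70. Against Ctrl the rise with Cu-Cys was 4.69-fold (log2 2.23, standard error 0.08, adjusted p = 1.2e-10), and Cadict lay 171.4-fold above Cu-Cys (log2 7.42, adjusted p = 2.7e-17). By log2 fold change Hmox1 was the 5th highest of the 11949 genes tested in Cadict against Ctrl and the 13th in Cu-Cys against Ctrl. Its share of all counts went from 0.00293% ± 0.000167 in Ctrl (SD, n = 3) to 0.0131% ± 0.00149 in Cu-Cys (SD, n = 3) and 1.22% ± 0.0377 in Cadict (SD, n = 3). It was the 5th most abundant gene by counts in every Cadict library, and ranked between 6203 and 6547 in the Ctrl libraries. No 50-base stretch of its transcripts occurs in another annotated gene.

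Heme oxygenase 2, the constitutive isoform (Hmox2, Entrez number 15369, chromosome 16 from 4726361 to 4766742), moved the opposite way with Cadict. The Ctrl libraries held 46.3, 45.6 and 44.8 CPM, the Cu-Cys libraries 51.4, 45.7 and 48.1, and the Cadict libraries 7.14, 9.50 and 7.14. Ctrl and Cu-Cys overlapped and Cadict lay below both. Hmox2 fell 5.75-fold in Cadict against Ctrl (log2 -2.52, standard error 0.09, adjusted p = 7.7e-13). Its log2 change with Cu-Cys was 0.09 against Ctrl, with a 95% interval of -0.06 to 0.23 (adjusted p = 0.31).

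Since both isoforms were counted in the same library, their ratio does not depend on scaling. Hmox1 had 0.491 to 0.527 counts per Hmox2 count in Ctrl, 1.88 to 2.51 in Cu-Cys and 2022 to 2667 in Cadict. Thus the constitutive isoform led in Ctrl cells by counts and the inducible one in both treatments. The ratio rose 4.41-fold with Cu-Cys and 4675-fold with Cadict. All 3 pairs of groups were fully apart, each with p = 0.1 in a two-sided exact permutation test, the smallest p that 3 against 3 allows (0.12 adjusted over 18 ratio tests).

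The biliverdin reductases also parted with Cadict. Blvrb (Entrez number 233016, chromosome 7 from 27447978 to 27466144), which encodes the NADPH-dependent flavin and biliverdin reductase, had 21.2, 22.3 and 19.0 CPM in Ctrl, 24.2, 25.6 and 24.1 in Cu-Cys and 147.9, 165.8 and 147.1 in Cadict. It rose 7.37-fold in Cadict against Ctrl (log2 2.88, standard error 0.07, adjusted p = 6.2e-15). Its log2 change with Cu-Cys was 0.24 against Ctrl (adjusted p = 0.018), and it no longer passed the test under library totals, with limma on TPM or FPKM, or without Ctrl replicate 3 (0.18, adjusted p = 0.095) or Cu-Cys replicate 2 (0.21, adjusted p = 0.066).
Blvra (Entrez number 109778, chromosome 2 from 127070665 to 127097084), whose product makes the bilirubin form found in adults, had 24.5, 23.9 and 24.6 CPM in Ctrl, 21.9, 23.2 and 23.2 in Cu-Cys and 13.9, 17.2 and 12.2 in Cadict. It fell 1.69-fold in Cadict against Ctrl (log2 -0.76, standard error 0.10, adjusted p = 1.9e-06), short of the 2-fold limit; library totals gave -1.71, past it. With Cu-Cys it changed by a log2 of -0.10 against Ctrl (95% interval -0.27 to 0.08, adjusted p = 0.36). The Blvra to Blvrb ratio was 1.07 to 1.29 in Ctrl, 0.905 to 0.962 in Cu-Cys and 0.0827 to 0.104 in Cadict, a 12.6-fold fall with Cadict (exact permutation p = 0.1).

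Both ferritin chains rose with both treatments. The heavy chain Fth1 (Entrez number 14319, chromosome 19 from 9980598 to 9985098), which oxidizes ferrous iron for storage, had 581.8, 605.4 and 579.3 CPM in Ctrl, 960.3, 914.8 and 942.6 in Cu-Cys and 3665, 4555 and 3898 in Cadict. The light chain Ftl1 (Entrez number 14325, chromosome 7 from 45457944 to 45459884), which helps form the iron core, had 938.6, 979.8 and 976.0, then 1662, 1539 and 1602, then 4435, 5400 and 4321 CPM. For both chains the 3 groups stepped up from Ctrl to Cu-Cys to Cadict without overlap, and Cadict replicate 2 was the highest library.
Fth1 rose 1.60-fold with Cu-Cys (log2 0.67, standard error 0.07, adjusted p = 2.2e-06) and 6.86-fold with Cadict (log2 2.78, standard error 0.07, adjusted p = 9.3e-15) against Ctrl. Ftl1 rose 1.66-fold (log2 0.73, standard error 0.07, adjusted p = 1.9e-06) and 4.89-fold (log2 2.29, standard error 0.07, adjusted p = 1.4e-13). Of the 50-base stretches of Ftl1, 50.9% also occur in other annotated genes, led by the pseudogene Ftl1-ps1, so its counts are uncertain, whereas 1.59% of those of Fth1 do. Under library totals Ftl1 was no longer called in Cadict against Cu-Cys (log2 0.67 in place of 1.56). Together the chains took 0.197% ± 0.00306 of counts in Ctrl, 0.307% ± 0.0101 in Cu-Cys and 0.572% ± 0.0568 in Cadict (SD, n = 3 each).
Within a library, the ratio of Fth1 to Ftl1 was 0.594 to 0.620 in Ctrl and 0.578 to 0.594 in Cu-Cys, which overlapped (exact permutation p = 0.2). It was 0.827 to 0.902 in Cadict, 1.40-fold above Ctrl without overlap (exact permutation p = 0.1).

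The uptake genes differed from each other. The transferrin receptor Tfrc (Entrez number 22042, chromosome 16 from 32608920 to 32632794) brings in transferrin-bound iron, and had 429.6, 442.8 and 444.6 CPM in Ctrl, 672.5, 697.5 and 661.3 in Cu-Cys and 272.1, 264.2 and 306.2 in Cadict. Each Cu-Cys library was above, and each Cadict library below, all Ctrl libraries. Tfrc rose 1.54-fold with Cu-Cys (log2 0.63, standard error 0.06, adjusted p = 8.5e-07) and fell 1.56-fold with Cadict (log2 -0.64, standard error 0.06, adjusted p = 2.5e-08) against Ctrl. Library totals gave 0.56 and -1.60. Between the treatments Cadict was 2.41-fold lower (log2 -1.27, standard error 0.06, adjusted p = 8.1e-12), which tests the difference of both changes directly.
Set against the heavy ferritin chain in the same library, Tfrc had 0.731 to 0.768 counts per Fth1 count in Ctrl and 0.700 to 0.763 in Cu-Cys, which overlapped (exact permutation p = 0.3). In Cadict the ratio was 0.0580 to 0.0786, a 10.7-fold fall from Ctrl (exact permutation p = 0.1). Thus Tfrc, with hairpins in its 3′ UTR, and Fth1, with a hairpin in its 5′ UTR, both rose with Cu-Cys and moved in opposite directions with Cadict.

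The divalent metal transporter Slc11a2 (Entrez number 18174, chromosome 15 from 100387898 to 100425072), which moves ferrous iron across the endosome membrane, had 45.0, 50.6 and 47.7 CPM in Ctrl, 55.5, 51.2 and 52.8 in Cu-Cys and 70.3, 66.0 and 69.4 in Cadict. Cadict libraries were above the rest on this scale. Its log2 fold change in Cadict against Ctrl was 0.52 (standard error 0.06, adjusted p = 7.3e-07) with TMM, but -0.43 under library totals, so that its direction is known only relative to the typical gene. With Cu-Cys it was 0.15 (adjusted p = 0.045), and the replicate block gave an adjusted p of 0.072. It did not pass under library totals (0.09, adjusted p = 0.28), with limma on TPM or FPKM, or with the stricter filter on low counts. Without Ctrl replicate 1 or 3, or Cu-Cys replicate 1 or 3, that adjusted p was 0.21, 0.11, 0.19 and 0.094. Slc11a2 rose 2.25-fold relative to Tfrc within a library with Cadict (exact permutation p = 0.1), a change that does not depend on scaling.

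The iron exporter ferroportin (Slc40a1, Entrez number 53945, chromosome 1 from 45908068 to 45926523) had 0 counts in all Ctrl and Cadict libraries and 0, 1 and 1 in the Cu-Cys libraries. All groups were thus at or under the limit of 3 counts per library, and no change could be measured at this depth.

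Ireb2 (Entrez number 64602, chromosome 9 from 54863789 to 54912530) encodes iron regulatory protein 2, which binds the hairpins and is degraded when iron is plentiful. Its mRNA was at 108.8, 103.1 and 111.8 CPM in Ctrl, 109.8, 117.7 and 107.5 in Cu-Cys and 33.8, 30.8 and 42.7 in Cadict. Ctrl and Cu-Cys overlapped, and Cadict lay below both. Ireb2 fell 3.02-fold in Cadict against Ctrl (log2 -1.59, standard error 0.09, adjusted p = 8.5e-11). Cu-Cys against Ctrl gave a log2 of 0.05 (95% interval -0.12 to 0.22, adjusted p = 0.64).
Aco1, the gene of iron regulatory protein 1, did not pass the test in Cadict against Ctrl (log2 0.11, adjusted p = 0.091), although library totals gave -0.84. The Ireb2 to Aco1 ratio was 2.15 to 2.28 in Ctrl, 2.07 to 2.37 in Cu-Cys and 0.633 to 0.762 in Cadict, a 3.29-fold fall with Cadict (exact permutation p = 0.1) and overlapping groups with Cu-Cys (exact permutation p = 0.8).

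**Figure D2:**
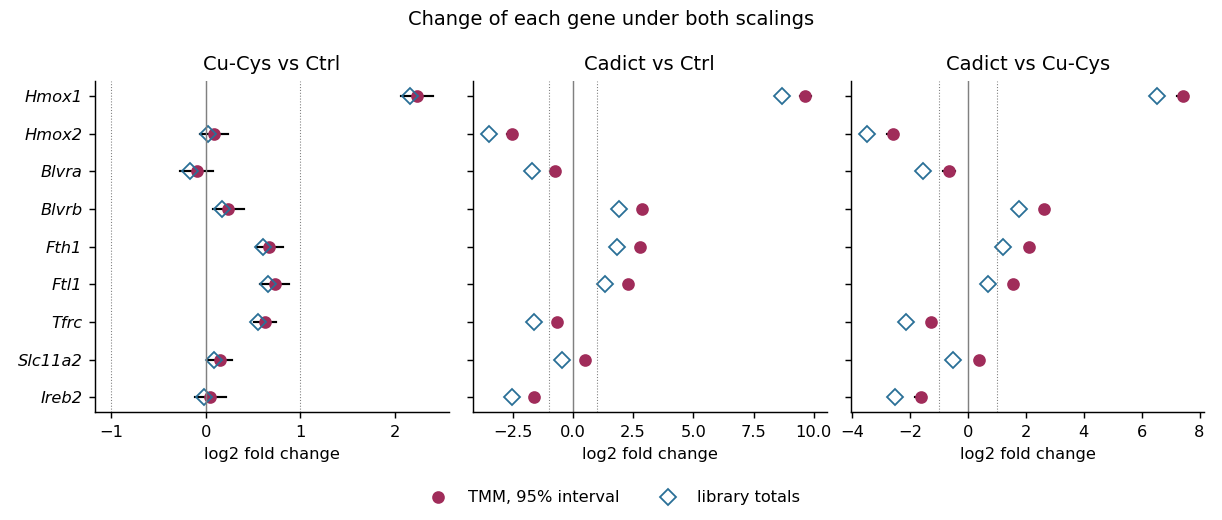
Log2 fold change of each tested member in the 3 comparisons with TMM scaling (filled circles, lines are 95% intervals, narrower than the circle for some genes) and with library totals (open diamonds); dotted lines mark a 2-fold change and the horizontal axes differ. With Cadict the diamonds lie to the left of the circles, and for Slc11a2 they cross 0, from 0.52 to -0.43 against Ctrl.

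**Figure D3:**
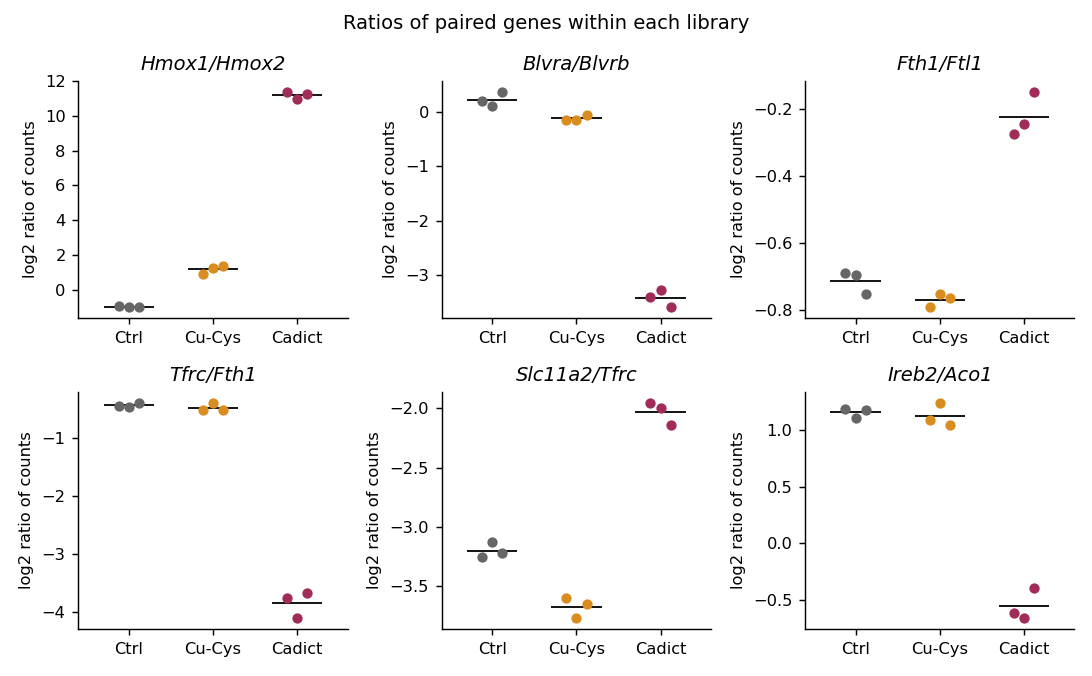
Log2 ratio of the counts of paired genes in each library (points) with the group mean (line) of 3 libraries; vertical axes differ between panels and do not start at 0. Hmox1 over Hmox2 goes from a mean of -0.98 in Ctrl to 1.16 in Cu-Cys and 11.2 in Cadict, and the Cadict libraries stand apart in every panel.

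Levels between genes were compared per transcript length, as deposited TPM, reads per transcript length scaled to a common total. In Ctrl cells the order was Ftl1 (3227 ± 31.3), Fth1 (2060 ± 41.0), Tfrc (204.2), Hmox2 (106.8), Blvrb (83.5), Blvra (61.0), Ireb2 (42.0), Hmox1 (39.8) and Slc11a2 (33.7). Here Ireb2 and Hmox1 overlapped and the other neighbors did not. In Cadict cells Hmox1 came first (12870 ± 817.2), above Ftl1 (6261 ± 194) and Fth1 (5610 ± 313), followed by Blvrb (244), Tfrc (53.3), Slc11a2 (21.4), Blvra (14.4), Hmox2 (7.37) and Ireb2 (5.73), the last 2 overlapping. In Cu-Cys cells Hmox1 was 4th at 168.6 TPM, between Tfrc at 285.3 and Hmox2 at 102.2. The errors are SD with n = 3.

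Other genes of heme and iron biology were read from 7 lists with 76 genes besides the members, of which 63 were tested. In Cadict against Ctrl 36 passed the test higher and 19 lower, and 18 were called higher and 5 lower. Over all genes tested, 40.6% passed higher and 47.1% lower, and 20.7% and 27.1% were called. These shares are also the background for the counts of single lists below. Library totals gave 15 and 38 passing and 6 and 21 called, so the balance of directions depends on scaling. With Cu-Cys 23 passed higher and 7 lower (22.6% and 22.4% over all genes), and 0 were called by edgeR or DESeq2 (28 higher and 12 lower at an unadjusted p under 0.05). Under library totals 16 passed higher and 14 lower with Cu-Cys, so this balance depends on scaling too. Over the 63 genes, log2 fold changes had a median of 0.418 with Cadict and 0.0786 with Cu-Cys against Ctrl.

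Of 10 regulators of Hmox1 transcription, all tested, 7 passed higher and 2 lower in Cadict against Ctrl. These counts were 4 and 4 under library totals. Maff, a small Maf protein that pairs with NRF2 or BACH1 on antioxidant response elements, had 22.2, 25.1 and 23.9 CPM in Ctrl, 34.9, 35.6 and 35.2 in Cu-Cys and 576.2, 597.6 and 549.8 in Cadict. It rose 24.2-fold with Cadict (log2 4.60, standard error 0.06, adjusted p = 2.6e-17) and by a log2 of 0.57 with Cu-Cys (adjusted p = 4.7e-06). Its relative Mafk rose 18.9-fold with Cadict (log2 4.24, adjusted p = 4.5e-17). For both, the Cu-Cys libraries lay between the other groups without overlap. Nfe2l2, which encodes NRF2, an activator of Hmox1, rose with Cadict (log2 1.19, adjusted p = 1.5e-11), but library totals gave 0.24, short of 2-fold. Keap1, whose product has NRF2 degraded, fell (log2 -1.32, adjusted p = 3.9e-10). Neither passed with Cu-Cys (log2 -0.10 and 0.14, adjusted p = 0.18 and 0.098). Bach1, the heme-sensing repressor of Hmox1, was at 0.89 with Cadict under TMM (adjusted p = 9.7e-08) and at -0.06 under library totals.

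Heme synthesis had 8 of 9 genes tested, of which 4 passed higher and 3 lower in Cadict against Ctrl. With library totals 1 passed higher and 7 lower. Alas1, the rate-limiting enzyme outside red cells, had 18.9, 21.0 and 18 CPM in Ctrl, 28.2, 26.9 and 27.8 in Cu-Cys and 20.2, 19.0 and 22.8 in Cadict. Alas1 was thus highest in Cu-Cys, with a log2 fold change of 0.52 against Ctrl (adjusted p = 7.5e-05), and its value of 0.10 in Cadict against Ctrl did not pass (adjusted p = 0.28), although library totals gave -0.85 (adjusted p = 1.1e-07). With Cadict Fech, which inserts iron into the ring, fell (log2 -0.68, adjusted p = 1.5e-08). Cpox rose (1.49, or 0.54 and short of 2-fold under library totals), and Ppox was at 0.70 under TMM but at -0.25 under library totals.

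In heme and iron transport 18 of 21 genes were tested, and 9 passed higher and 6 lower in Cadict against Ctrl. The counts turned to 4 and 11 under library totals. Slc48a1, which carries heme out of lysosomes, had 51.5, 51.9 and 52.4 CPM in Ctrl, 93.9, 84.9 and 89.6 in Cu-Cys and 364.8, 388.2 and 373.9 in Cadict. Like the ferritins it stepped up in both treatments, by a log2 of 0.78 with Cu-Cys (adjusted p = 6.7e-08) and 2.85 with Cadict (adjusted p = 4.6e-16). The metalloreductase family gene Steap1 rose by 0.27 and 2.24 (adjusted p = 0.0051 and 4.3e-14). Abcb6, a porphyrin transporter with 50% of its 50-base stretches shared with another annotated gene, was at 0.42 and 1.90, and the latter was 0.95 under library totals.

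Of 8 genes of cellular iron regulation, 7 were tested, and 5 passed higher and 1 lower in Cadict against Ctrl. With library totals 3 passed higher and 4 lower. The lower one under TMM was Fbxl5, the iron-sensing subunit that marks iron regulatory protein 2 for degradation. Its log2 fold change was -1.36 with Cadict (standard error 0.07, adjusted p = 6.7e-11) and -0.15 with Cu-Cys (adjusted p = 0.07). Fbxl5 and its substrate's gene Ireb2 were therefore both lower with Cadict. The iron chaperone Pcbp1 rose by 1.22 and Nedd8, which activates cullin ligases, by 1.44 under TMM, and by 0.27 and 0.48 under library totals, both short of 2-fold. Ncoa4, the receptor that delivers ferritin to the lysosome, was at 0.51 under TMM (adjusted p = 1.1e-05) and at -0.44 under library totals, and 17.9% of its stretches are shared.

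The genes whose log2 CPM over the 9 libraries had the highest Pearson r with Hmox1, among 8550 genes compared, were Srprb (r = 0.9995), Utp4 (r = 0.99942) and Cmtm3 (r = 0.99937). Their own log2 fold changes in Cadict against Ctrl were smaller, at 1.92, 2.20 and 2.14. These 9 points fall into 3 groups, so r describes the order and spacing of the groups and carries no p.

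Promoter windows, from 250 bases before to 50 after each start (RefSeq, GRCm38.p6), were at hand for 7 of the 10 members, in 12 windows. The antioxidant response element core TGACNNNGC was found on either strand in 1 window, that of Blvra, against 12.4% of 32851 promoters, and the metal response element core (TGCACNC or TGCGCNC) in 1, of Tfrc, against 25.7%. Hmox1, Slc40a1 and Slc11a2 had no window, and regions farther out were not analysed here.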

How the data were processed

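The 9 libraries hold RNA of MC38 cells. The authors deposited a single table of 16509 genes that gives each library's signal value (a count divided by a size factor), TPM, FPKM and expected count (estimated reads of a gene, not normalized). The submitters' processing notes list HISAT2 2.1.0, Bowtie2 2.3.4.3, RSEM 1.3.1 and the builds GRCm39 and GRCh38.p13, without roles. CC columns were taken for Cu-Cys by the initials and CCGE columns for Cadict by inference from what it contains. The 12 columns of group averages were not used.

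After rounding, expected counts went into edgeR 4.0.16 in R 4.3.3 (filterByExpr, TMM, 1 quasi-likelihood fit of 3 groups without a block, Benjamini-Hochberg adjustment over 11949 genes). A gene was called at the study's threshold, 2-fold or more with an adjusted p no higher than 0.001. It passed the test at an adjusted p of at most 0.05. Ratios of paired genes were compared by exact two-sided permutation tests over libraries, with no Slc40a1 ratio because of its zeros. The members and lists were chosen with earlier results of these data known. Besides members, the text names from each list the 3 genes with the largest absolute change in Cadict against Ctrl at a mean of at least 10 CPM, further fixed regulators (Aco1, Fbxl5, Ncoa4, Bach1, Nfe2l2, Alas1 and Fech), and the 3 genes most correlated with Hmox1. Some genes that this rule selects are not reported here by themselves. Simulated counts with known changes in few genes, up and down alike, were used to check the fit. They do not test the scaling under changes as broad as those with Cadict. Shared 50-base stretches and hairpins came from GENCODE M21 transcripts of GRCm38, a build that these notes do not list, so sequences were matched by gene name. Alternatives were DESeq2 1.42.0, limma 3.58.1 on log2 TPM and FPKM, library totals, other filters, a replicate block and leaving out each library. Same-numbered libraries had residual correlations of -0.197 to 0.167 over 8551 genes, so numbers were not read as pairs. Replicates of a group differed by more than sampling noise (chi-square per degree of freedom 1.88 to 23.1), and none was a duplicate. Cadict replicate 2 stood out, at 14.7 and 23.1 against Cadict replicates 1 and 3, while every other pair was at 4.53 or less.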

Additional observations from a re-analysis of the deposited data

How the results depend on the processing

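The count of members called did not move by over 1.5 times under any alternative, and stayed at 6, 1 and 7 (Cadict against Ctrl, Cu-Cys against Ctrl, Cadict against Cu-Cys) with each library left out. By direction, library totals changed the calls from 4 higher and 2 lower to 4 and 4 in Cadict against Ctrl, and from 4 and 3 to 3 and 4 in Cadict against Cu-Cys. At an adjusted p no higher than 0.05, they changed 5 higher and 4 lower to 4 and 5 in both. In Cu-Cys against Ctrl they changed 6 higher and 0 lower to 4 and 0. Slc11a2 reversed in Cadict against Ctrl under library totals (-0.43) and limma on log2 of TPM + 1 (-0.64), TPM + 0.1 (-0.66) and FPKM + 1 (-0.30), and in Cadict against Cu-Cys under the same settings (-0.52, -0.64, -0.66 and -0.37). In Cu-Cys against Ctrl, values that had not passed changed sign for Hmox2 with TPM + 1 (-0.0638) and TPM + 0.1 (-0.0644), and for Ireb2 under library totals (-0.0195), TPM + 1 (-0.0916), TPM + 0.1 (-0.0936) and FPKM + 1 (-0.0207). Library totals, TPM and FPKM do not move libraries to the level of the typical gene. With a library left out, the log2 ratio difference of Ireb2 to Aco1 in Cu-Cys against Ctrl ran from -0.0865 to 0.0107. The 27 member values under the replicate block stayed on their side of the 0.05 threshold except Slc11a2 in Cu-Cys against Ctrl (0.15, adjusted p = 0.072). Residual correlations of same-numbered libraries had mixed signs, which cannot settle whether the numbers are pairs, and the numbers were not read as pairs. In Cu-Cys against Ctrl, Blvrb did not pass under library totals (0.17, adjusted p = 0.069), TPM + 1 (0.09, 0.39), TPM + 0.1 (0.09, 0.43) or FPKM + 1 (0.16, 0.082), nor did Slc11a2 under library totals (0.09, 0.28), with 10 or more counts in each library (0.13, 0.084), TPM at either pseudocount (0.99) or FPKM + 1 (0.07, 0.37). Leaving out libraries kept 156 of 162 member values on their side of the threshold. Blvra in Cu-Cys against Ctrl passed only with limma on TPM (-0.24, adjusted p = 0.025 at TPM + 1 and 0.045 at TPM + 0.1).

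Over all genes, the calls in Cadict against Ctrl were 2472 higher and 3235 lower, with 2225 and 2816 in Cadict against Cu-Cys, and 20 and 176 in Cu-Cys against Ctrl; library totals gave 828 and 6148, 688 and 5705, and 18 and 209. Limma on TPM + 1 gave 389 and 6472 in Cadict against Ctrl. In Cu-Cys against Ctrl keeping genes with 10 or more counts in each library gave 15 and 104, TPM + 1 gave 9 and 107, and FPKM + 1 gave 11 and 60. Depth limits Slc40a1, at or under 1 count in every library.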

Other observations

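Of 12 genes of mitochondrial iron use, all tested, 6 passed higher and 5 lower in Cadict against Ctrl. These counts were 1 and 8 under library totals. Hspa9, the chaperone of iron-sulfur cluster transfer, had 601.1, 610.2 and 626.3 CPM in Ctrl, 813.2, 812.2 and 800.1 in Cu-Cys and 3953, 3830 and 3906 in Cadict, fully apart in each pair of groups. Its log2 fold change was 2.67 with Cadict (adjusted p = 2.6e-16, edgeR's quasi-likelihood test) and 0.40 with Cu-Cys (adjusted p = 6e-06). Fdx2 and Fdx1, ferredoxins that donate electrons, were at 1.14 and 0.93 with Cadict under TMM, and at 0.19 and -0.03 under library totals.

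Of 6 other mRNAs listed for an iron-responsive element, 4 were tested, and whether each carries one in mouse was not checked here. With Cadict 3 passed higher, Sdhb among them, and 1 lower. With Cu-Cys 0 passed in edgeR's test with TMM (1 higher and 1 lower at an unadjusted p under 0.05). Library totals gave 1 higher and 2 lower with Cadict and 1 lower with Cu-Cys, Cdc42bpa at -0.22 (adjusted p = 0.024), and DESeq2's size factors gave 1 higher with Cu-Cys. Sdhb, a subunit of succinate dehydrogenase, was at 1.05 with Cadict under TMM and 0.09 under library totals, and Cdc42bpa was at 0.44 under TMM but at -0.51 under library totals. Of 11 genes of systemic iron regulation, 4 were tested, and Neo1, a coreceptor of bone morphogenetic protein signaling, was at 0.99 under TMM and 0.04 under library totals. Bmp6, the signal that raises hepcidin in the liver, named here after its values were seen, had 4, 0 and 2 counts in Ctrl, 5, 6 and 9 in Cu-Cys and 76, 70 and 100 in Cadict (Cadict against Ctrl log2 6.23 with a standard error of 0.36, adjusted p = 1.2e-10), a fitted value that rests on very few Ctrl counts.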
